A study of Mus musculus with 22 samples.

Results

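Fabp5, Crabp2, Elovl4, Elovl1, Psapl1, Cers3, Ugcg and Abca12 are 8 genes of lipid transport and ceramide handling in keratinocytes. They were taken by name as 8 of the 17541 genes in the UMI count tables of mouse esophageal epithelium. All 8 had UMIs in each of the 3 conditions. Each UMI (unique molecular identifier) stands for 1 captured transcript. Levels are given as CPM, the UMIs of a gene scaled to 1000000 UMIs of the epithelial cells of a mouse. Gene positions are on GRCm38.

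A stratified epithelium that cornifies seals its surface with ceramides whose acyl chains are very long. Elongases of the endoplasmic reticulum lengthen fatty acyl-CoA, a ceramide synthase joins the product to a sphingoid base, and the ceramide is glucosylated and loaded into lamellar granules for secretion. Lysosomal enzymes and their saposin cofactors take the glucose off again. Small binding proteins carry fatty acids and retinoic acid through the cytosol of the same cells. In the mouse esophagus, whose surface is keratinized, these steps belong mainly to cells that have left the basal layer.

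The 13 mice were C57BL6, and the epithelium-enriched layer of the esophagus was peeled from the muscle, dissociated with Dispase and trypsin, and run by inDrop, a droplet single cell method. The 6 control mice were untreated rather than given vehicle and were 3 to 4 months (young, mice 1, 2 and 6) or 18 to 20 months old (old, mice 3, 4 and 5). The 4 EoE mice modeled eosinophilic esophagitis: MC903, a vitamin D analog, and ovalbumin (OVA) were put on scraped ears for 12 days, then OVA was given by gavage and in the drinking water (15 g/L) from day 15 to day 32. EoE mice 9 and 10 were 6 to 8 weeks and EoE mice 11 and 12 were 19 to 20 months old. The 3 ESCC mice (8M, 17F and 17M, 8 to 10 months old) modeled esophageal squamous cell carcinoma and drank the carcinogen 4NQO at 100 µg/mL for 16 weeks, followed by 8 weeks without it. No control mouse was of the age of the ESCC mice, so age and 4NQO cannot be told apart there.

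Each control and ESCC mouse gave 2 libraries and each EoE mouse 1, and 1500 cells per condition were deposited. Within the study's limits of 250 to 3500 genes and 100 to 9500 UMIs, and without cells that showed non-epithelial markers, 1493 control, 143 EoE and 1467 ESCC cells remained, because only 144 of the 1500 EoE cells lay within the limits. These cells held 111043 to 427752 UMIs per control mouse, 6245 to 41909 per EoE mouse and 1231048 to 2095454 per ESCC mouse, so an EoE value often rests on a few UMIs. In all 9 mice with 2 libraries, 4 to 52 cell barcodes occurred in both libraries, 239 pairs in all. The expression profiles of such a pair had a median correlation of up to 0.858 per mouse, and in each mouse it was above that of cells with different barcodes (0.262 to 0.475). Results are therefore also given with each shared barcode counted once. Basal marker genes took 1.27 to 1.94% of the UMIs in control, 0.173 to 0.32% in EoE and 1.86 to 2.87% in ESCC mice. The 11 immune markers took 0.00315 to 0.00736%, 0% with all 11 at 0 UMIs, and 0.0134 to 0.0218%. The mix of the cells kept thus differed between conditions. In EoE it also depended on the limits. There the basal keratin Krt5 averaged 571 CPM within the limits and 982 CPM with all deposited cells. The differentiation gene Krtdap averaged 7894 and 3425 CPM. Controls with all deposited cells had 5139 CPM of Krt5 and 6168 CPM of Krtdap. In sums over the epithelium, fewer cells of a kind and less RNA per cell cannot be told apart.

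Compared with control epithelium, EoE epithelium held more RNA of Psapl1, Elovl4, Cers3 and Crabp2 and less of Fabp5. These 5 of the 8 genes passed the test (edgeR, quasi-likelihood, adjusted p under 0.05), 4 higher and 1 lower. Of all 5863 genes tested, 34.4% were called. The share was larger among abundant genes, at 63% of the 728 whose mean level in the fit reached 8 in log2 CPM. Fabp5, Psapl1, Elovl4 and Crabp2 were among these 728 genes. Cers3, Elovl1, Ugcg and Abca12 were less abundant. The median log2 fold change of the 8 was 1.05, against -0.74 over all genes tested. With each shared barcode counted once, 5 of 8 were again called. Fold changes are after TMM scaling and therefore differ somewhat from the ratios of the CPM levels.

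Among the carriers, Fabp5 (chr3:10012548-10016607, plus strand) is the epidermal fatty acid-binding protein. In controls it ranged from 1581 to 2513 CPM (median 2147), and EoE mice 9, 10, 11 and 12 had 1664, 1289, 1441 and 1280 CPM. EoE mice 10, 11 and 12 lay below every control, and mouse 9 lay within their range. Fabp5 was 0.595 times its control level (log2 fold change -0.75 ± 0.24 SE, adjusted p = 0.0165). That value was close to the median of all genes, -0.74. The call was lost without EoE mouse 10 (adjusted p = 0.0556) or 12 (0.0616), with control and ESCC cells thinned to the EoE depth (0.0548) and with control and EoE mice alone in the fit (log2 fold change -0.63, adjusted p = 0.0536).

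Crabp2 (chr3:87948666-87953376, plus strand) carries retinoic acid to its nuclear receptors. It ranged from 78.5 to 545 CPM in controls (median 363) and stood at 1193, 978, 480 and 779 CPM in EoE mice 9 to 12, with 3 UMIs in mouse 11. Mice 9, 10 and 12 lay above all controls and mouse 11 did not. It was 2.59-fold higher (log2 1.37 ± 0.41, adjusted p = 0.0103), but not without EoE mouse 9 (adjusted p = 0.108) or 10 (0.0707), and not by DESeq2 (0.0687).

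Elovl4 (chr9:83778692-83806277, minus strand), the elongase that makes the longest acyl chains of skin ceramides, ranged from 81.0 to 456 CPM in controls (median 363). EoE mice 9 to 12 had 2260, 2696, 1441 and 2171 CPM. All 4 lay above the highest control, and the fold was 6.14 (log2 2.62 ± 0.31, adjusted p = 9.93e-08). Elovl1 (chr4:118428093-118432953, plus strand), which elongates saturated and monounsaturated chains, stood at 345, 191, 160 and 334 CPM in EoE against 99.1 to 227 CPM in controls (median 179). The groups overlapped, and its log2 fold change of 0.42 ± 0.35 did not pass (adjusted p = 0.355). Elovl1 overlaps Cdc20 on the opposite strand, and the strand setting of the counting is not given in the sources used here, so its UMIs may hold reads of that gene.

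Cers3 (chr7:66743504-66823691, plus strand), the ceramide synthase that uses very long acyl-CoA, ranged from 90.1 to 226 CPM in controls (median 173) and stood at 408, 501, 320 and 724 CPM in EoE mice 9 to 12. The groups did not overlap, although mouse 11 had only 2 UMIs. Cers3 was 2.57-fold higher (log2 1.36 ± 0.31, adjusted p = 0.00113). Ugcg (chr4:59189257-59222833, plus strand), the glucosylceramide synthase, had 94.2, 143, 0 and 111 CPM in EoE, from 11 UMIs in all, against 9.01 to 97.6 CPM in controls (median 60.4). Abca12 (chr1:71242276-71414910, minus strand), the transporter that loads glucosylceramide into lamellar granules, had 62.8, 191, 160 and 55.7 CPM from 12 UMIs, against 27.0 to 85.0 CPM (median 61.1). Both overlapped the controls and did not pass, with log2 fold changes of 0.72 ± 0.64 and 0.74 ± 0.49 (adjusted p = 0.400 and 0.251).

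Psapl1 (chr5:36204021-36206568, plus strand) encodes a protein related in sequence to prosaposin, the precursor of the saposins. It ranged from 324 to 822 CPM in controls (median 619), and EoE mice 9 to 12 had 4520, 5273, 6245 and 3396 CPM. All 4 EoE mice lay above every control. Its fold of 6.83 was the largest of the 8 (log2 2.77 ± 0.27, adjusted p = 1.81e-09). Psapl1 overlaps Sorcs2 on the opposite strand, so reads of that gene may be among its UMIs.

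The promoters of Psapl1, Elovl4 and Cers3 are shown because these were the 3 genes with no overlap between EoE and control mice. The share of all genes without such an overlap is not given here, so this is a choice for display only. Each sequence runs 5′ to 3′ on the strand of its gene, from 250 bases before to 50 after the start, as RefSeq places it in GRCm38.p6. Capitals mark motifs found on either strand, and positions count in bases from the start site.
Psapl1 (chr5:36203771-36204070, plus strand): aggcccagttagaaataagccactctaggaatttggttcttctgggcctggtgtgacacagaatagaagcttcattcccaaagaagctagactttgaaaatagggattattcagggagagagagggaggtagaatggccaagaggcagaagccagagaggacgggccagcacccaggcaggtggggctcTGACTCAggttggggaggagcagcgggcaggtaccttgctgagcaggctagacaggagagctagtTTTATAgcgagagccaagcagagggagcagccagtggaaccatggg
Elovl4 (chr9:83806256-83806555, minus strand): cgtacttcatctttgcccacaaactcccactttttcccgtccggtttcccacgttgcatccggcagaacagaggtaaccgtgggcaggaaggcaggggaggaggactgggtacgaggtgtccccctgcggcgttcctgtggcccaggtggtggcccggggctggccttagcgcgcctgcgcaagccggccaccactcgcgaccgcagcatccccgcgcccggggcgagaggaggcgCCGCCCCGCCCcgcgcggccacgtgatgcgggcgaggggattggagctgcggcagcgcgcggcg
Cers3 (chr7:66743254-66743553, plus strand): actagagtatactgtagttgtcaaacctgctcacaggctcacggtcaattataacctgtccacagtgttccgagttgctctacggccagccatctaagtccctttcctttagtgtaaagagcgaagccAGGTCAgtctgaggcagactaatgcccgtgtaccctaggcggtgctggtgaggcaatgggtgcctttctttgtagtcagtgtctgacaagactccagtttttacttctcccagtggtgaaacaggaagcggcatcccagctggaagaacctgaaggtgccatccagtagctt
The 5 motifs searched, on both strands, were the AP-1 motif TGANTCA, the nuclear receptor motif AGGTCA, the grainyhead motif AACCGGTT, the TATA box TATAAA and the GC box GGGCGG. Of 32817 mouse promoters of the same length, 7.81% hold the first, 16.3% the second, 0.146% the third, 13.6% the TATA box and 35.6% the GC box. The Psapl1 window holds an AP-1 motif at -61 and TATAAA on the reverse strand at 5. That of Elovl4 holds 2 overlapping GC boxes at -14 and -9, and that of Cers3 an AGGTCA at -122. The Abca12 window holds none of these letters, that of Ugcg holds 2 GC boxes, and Elovl1 has a pair of start windows with GC boxes, 1 of them with AGGTCA. A match is a run of letters and does not show that a factor binds there. Of the 8 genes, 6 matched an entry, Fabp5 and Crabp2 not.

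**Figure D1:**
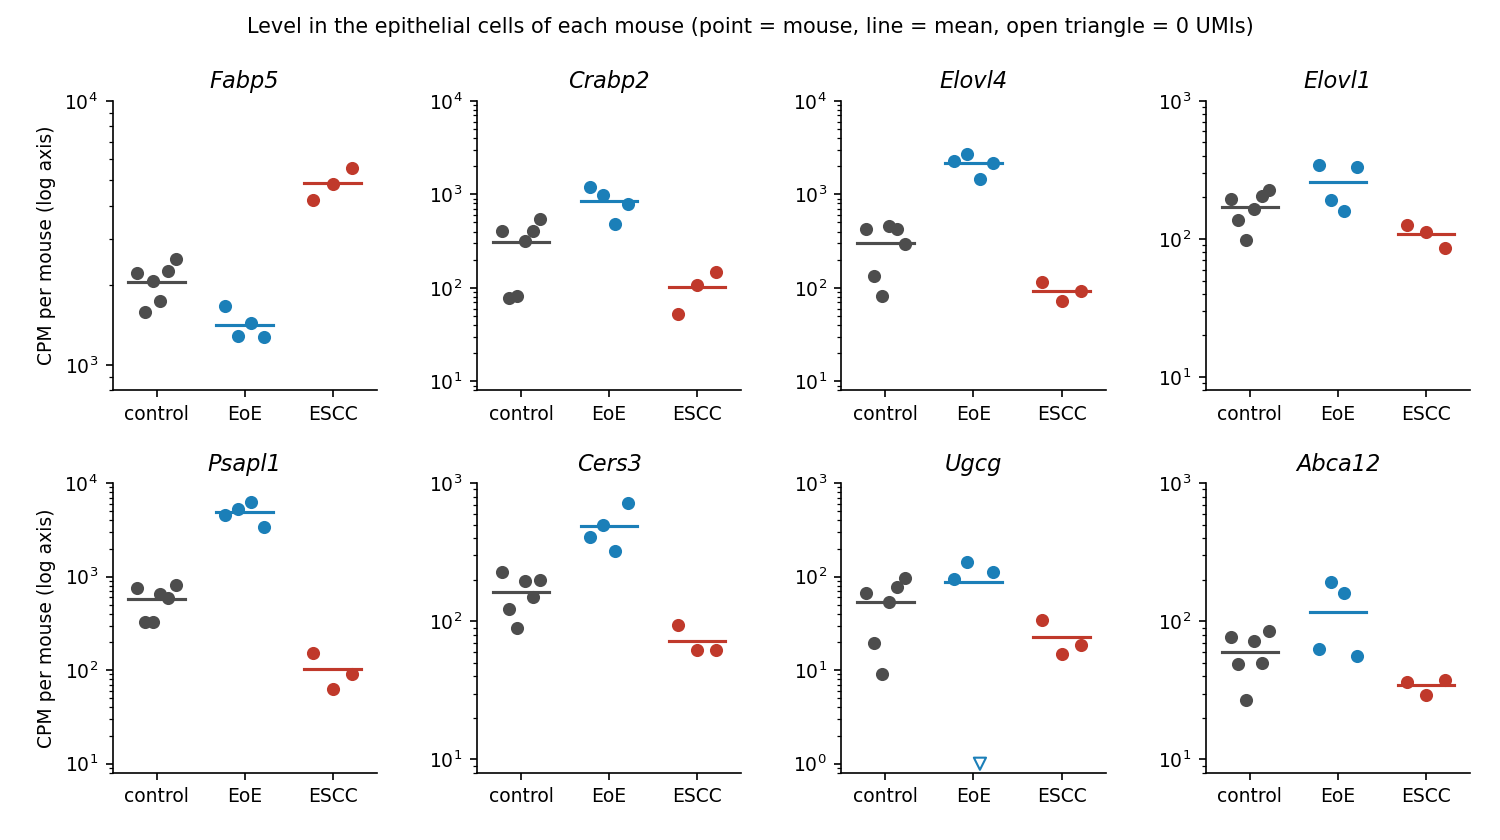
Level of each of the 8 genes in CPM (log axis) in every control, EoE and ESCC mouse, 1 point per mouse, with the mean as a line and an open triangle for 0 UMIs. Psapl1, Elovl4 and Cers3 are above all controls in all 4 EoE mice, and Fabp5 is above all controls in all 3 ESCC mice.

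The EoE result depended on which cells were counted. With all 1500 deposited EoE cells, 50.7% of genes were called and 4 of the 8 passed, 3 higher and 1 lower. Psapl1 stood at a log2 fold change of 1.91 (adjusted p = 6.12e-06), Elovl4 at 1.72 (0.000122) and Cers3 at 1.10 (0.000819). Fabp5 then stood at -1.48 (5.74e-06), and Crabp2 at 0.16 did not pass (0.793). Elovl1 (-0.32), Ugcg (-0.25) and Abca12 (-0.06) changed sign and again did not pass. The median log2 fold change of the 8 was then 0.05, against -0.31 over all genes tested.

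In ESCC epithelium the carriers parted: Fabp5 was higher than in controls, and the other 7 genes were lower. All 8 passed the edgeR test, against 34.4% of all genes tested, with a median log2 fold change of -1.16 against 0.01. Among the 728 abundant genes 47.1% were called. Of the genes called among all tested, 52.2% were higher under TMM scaling and 63.5% under RLE. With shared barcodes counted once, 7 were called, Elovl1 being lost (adjusted p = 0.0669), and by DESeq2 5 were called.

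Fabp5 reached 4225, 4843 and 5573 CPM in ESCC mice 8M, 17F and 17M. Each exceeded the highest control value of 2513 CPM (log2 fold change 1.43 ± 0.21, adjusted p = 3.53e-06). Crabp2, at 52.8, 106 and 147 CPM in the same order, was below all controls only in 8M. It fell by 1.45 ± 0.36 on the log2 scale (adjusted p = 0.00200).

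Psapl1 showed the largest fall of the 8 genes. It stood at 152, 63.4 and 90.2 CPM in 8M, 17F and 17M, and all 3 lay below the lowest control at 324 CPM. It was 0.198 times the control level (log2 -2.34 ± 0.31, adjusted p = 6.28e-07). Elovl4 had 115, 72.6 and 92.6 CPM, and Cers3 had 93.4, 62.27 and 62.04 CPM. Only 17F lay below all controls for Elovl4, and 17F and 17M did for Cers3. Their log2 fold changes were -1.59 ± 0.33 (adjusted p = 0.000337) and -1.06 ± 0.22 (0.000425).

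The other 3 genes moved less or rested on fewer UMIs. Elovl1 had 126, 112 and 86.4 CPM, with a log2 fold change of -0.52 ± 0.20 (adjusted p = 0.0456). Ugcg had 34.1, 15.0 and 18.6 CPM, with -1.26 ± 0.34 (0.00393). Abca12 had 36.6, 29.4 and 37.7 CPM, with -0.71 ± 0.25 (0.0237). Ugcg and Abca12 overlapped the controls in all 3 mice, and Elovl1 did in 8M and 17F. Under RLE scaling Elovl1 (adjusted p = 0.116) and Abca12 (0.0556) did not pass, and DESeq2 did not call Elovl1 (0.150), Ugcg (0.0637) or Abca12 (0.0834). Elovl1 was also lost without any 1 of control mice 1, 4, 5 and 6 or ESCC mice 17F and 17M (adjusted p up to 0.276), and Abca12 without control mice 1, 4 or 6 or ESCC mouse 17F (up to 0.142).

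Set directly against EoE, ESCC epithelium differed in 8 of 8 genes, 1 higher and 7 lower. Of all genes 41.7% were called, and of the 728 abundant ones 69.9%. On the log2 scale Fabp5 differed by 2.18 ± 0.27 and Psapl1 by -5.11 ± 0.37 (adjusted p of Psapl1 = 2.78e-12). Elovl4 differed by -4.21 ± 0.39, Crabp2 by -2.83 ± 0.47 and Cers3 by -2.43 ± 0.34. Ugcg (-1.98 ± 0.71, adjusted p = 0.0266), Abca12 (-1.45 ± 0.52, 0.0264) and Elovl1 (-0.94 ± 0.36, 0.0381) were closest to the threshold. Elovl1 lost the call without any 1 of control mice 1, 4 and 5, EoE mice 9 and 12 and ESCC mice 17F and 17M (adjusted p up to 0.305), Ugcg without EoE mice 9, 10 or 12 or ESCC mouse 17F (up to 0.230), and Abca12 without EoE mouse 10 or ESCC mouse 17F (up to 0.531). With shared barcodes counted once, 7 of 8 were called, and with all deposited cells 5, where 3375 of all 5971 genes were called.

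**Figure D2:**
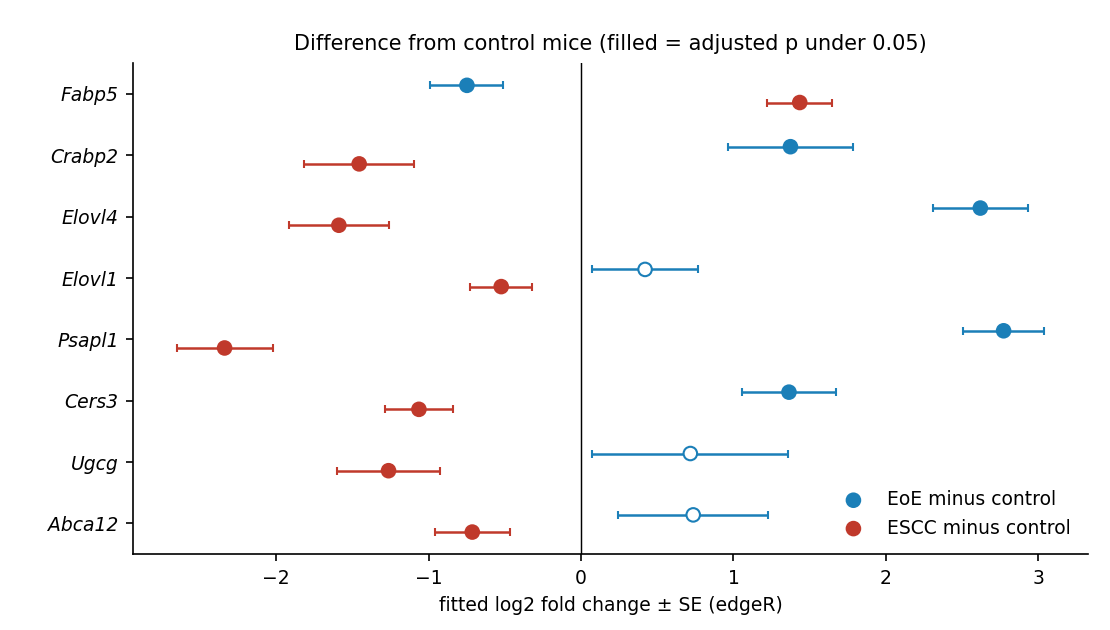
Log2 fold change of each gene against control, with SE, in EoE and in ESCC (filled points passed the threshold), from the edgeR fit over all 13 mice. Psapl1 lies at 2.77 in EoE and -2.34 in ESCC, while Fabp5 lies at -0.75 and 1.43.

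Age made no difference that the test called. Between old and young controls 0 of the 8 genes passed in edgeR or DESeq2, with 0 at an unadjusted p under 0.05, where 0.0971% of all genes were called. Log2 differences ran from -0.31 for Abca12 to 0.29 for Elovl4. The EoE effect differed with age in 0 of 8 (0.0476% of all genes called), and DESeq2 also called 0. Elovl4 alone had an unadjusted p under 0.05 in edgeR (-1.24 ± 0.58, old minus young, adjusted p = 0.617). Each age had 3 control and 2 EoE mice, and old EoE mouse 11 held 11 cells. The young EoE mice (6 to 8 weeks) were younger than the young controls (3 to 4 months). In the young mice EoE and this difference in age cannot be told apart.

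In control epithelium the 8 genes were higher in differentiated than in basal cells. Control cells clustered without the 8 genes fell into 5 clusters. Clusters 1 (Krt14, Col17a1), 2 (Top2a, Mki67) and 3 (Depp1, Car12) held more Krt5, the basal keratin, and clusters 4 (Mt4, Dmkn) and 5 (Sprr3, Cnfn) more Krtdap, a keratinocyte differentiation gene. They are called Krt5-dominant and Krtdap-dominant. Fabp5 was among the 10 leading genes of cluster 4 and Crabp2 of cluster 5. These levels are a description without a test.

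In control clusters 1 to 5 Fabp5 stood at 192, 179, 1041, 4170 and 5032 CPM. Crabp2 and Elovl4 were late, with 152 and 275 CPM in cluster 4 against 2046 and 1832 CPM in cluster 5, and at most 14.6 CPM in clusters 1 to 3. Psapl1 stood at 103, 840 and 2398 CPM in clusters 3, 4 and 5. Elovl1 and Cers3 were spread more widely, from 30.3 and 48.0 CPM at their lowest to 445 and 462 CPM in cluster 5. Ugcg, at 300 CPM, and Abca12, at 263 CPM, were also highest there. Cluster 5 was measured in 4 control mice.

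In the ESCC cells nearest to each control cluster, Fabp5 stood at 1899, 2053, 7361, 12738 and 14838 CPM in clusters 1 to 5, above control in each. In cluster 5, which was measured in 2 ESCC mice, Crabp2 stood at 599 CPM, Elovl4 at 766, Psapl1 at 1040, Ugcg at 135 and Abca12 at 140 CPM. In cluster 4 the ESCC levels of Elovl4 (327 CPM), Ugcg (46.8) and Abca12 (98.5) were near those of controls (275, 49.1 and 91.5). That of Psapl1 (292) was lower than in controls (840). Crabp2 was lower in ESCC only in cluster 5. In clusters 1 to 4 it averaged 34.6, 41.5, 110 and 274 CPM, against 8.95, 9.04, 11.0 and 152 CPM in controls. The ESCC mice were spread widely, from 6.08 to 201 CPM in cluster 3. Cluster 5 held 1, 11 and 13 cells in ESCC mice 17F, 17M and 8M, where cluster 4 held 65, 75 and 49.

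**Figure D3:**
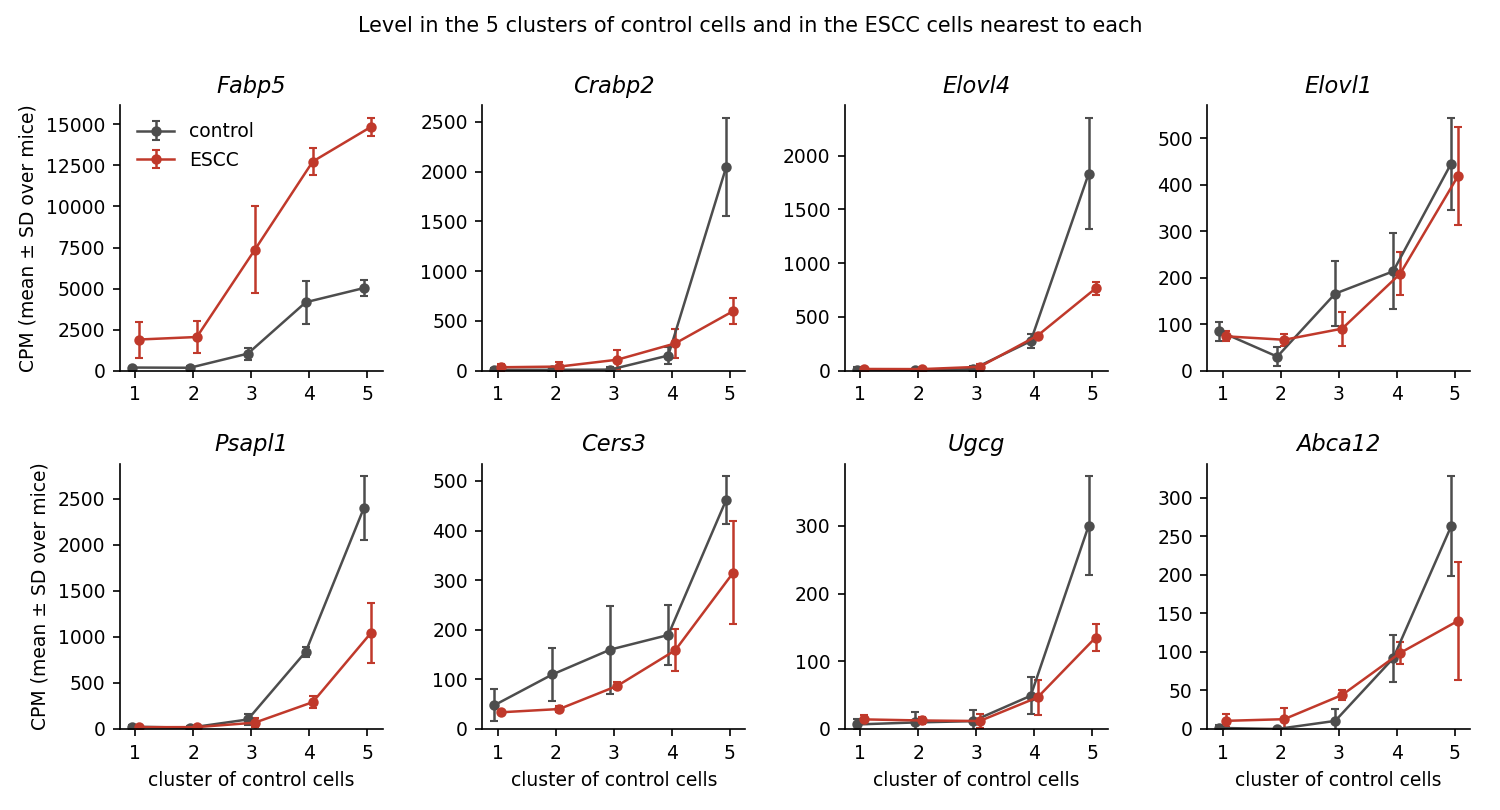
Level of each gene in CPM by control cluster 1 to 5, as mean and SD over mice, in control and in the ESCC cells nearest to each cluster. Fabp5 is higher in ESCC in every cluster (1899 CPM against 192 in cluster 1, 14838 against 5032 in cluster 5), and Psapl1 is lower in clusters 4 and 5.

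Among the UMIs of a control mouse, 99.0% ± 2.27 (SD, n = 6) of those of Elovl4 came from Krtdap-dominant cells, as did 97.7% ± 3.52 of Abca12, 97.5% ± 3.37 of Crabp2, 96.8% ± 1.37 of Psapl1 and 90.7% ± 2.61 of Fabp5. For Elovl1 the share was 68.9% ± 14.2 and for Cers3 68.2% ± 16.6. For Ugcg it was 75.7% ± 38.1, with control mouse 3 at 0% from 1 UMI. Over all controls, 101 of 108 Ugcg UMIs lay in the class. The class held 43.0% ± 9.91 of all UMIs. Control mice 2 and 3, with 25.5 and 20.0% of cells in this class against 38.9 to 46.7% in the others, were also the lowest controls for each of the genes except Fabp5. Of the cells within the limits, the class took 72.5% ± 13.7 in EoE (n = 4), 15.2% ± 3.4 in ESCC (n = 3) and 35.8% ± 10.6 in controls. The whole-epithelium values above move with this mix, so the classes were also compared on their own.

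Across the 12 control sums per mouse and class, the genes most like each member (Pearson r of log2 CPM over 5587 genes) were Mt4 for Fabp5 (0.997), Serpinb12 for Crabp2 (0.994), Krt4 for Elovl4 (0.991) and Calml3 for Psapl1 (0.994). For the others they were Abcd3 for Elovl1 (0.986), Mal2 for Cers3 (0.977), Tent5b for Ugcg (0.977) and Kyat1 for Abca12 (0.991). The next were Clic3 and Grhl1 for Fabp5 (0.989 each), Cnfn and Gsdma for Crabp2 (0.993 and 0.991), Serpinb12 and Gltp for Elovl4 (0.991 and 0.990) and Evpl and Creg1 for Psapl1 (0.991 and 0.990). They were Mal2 and Ppl for Elovl1 (0.979 each), Wfdc5 and Tmem54 for Cers3 (0.976 and 0.973), Elovl6 and Wfdc5 for Ugcg (0.970 each) and Spink5 and Ly6d for Abca12 (0.987 and 0.986). Among the 8 genes r ran from 0.722 (Fabp5 and Ugcg) to 0.987 (Crabp2 and Elovl4). The points share mice and the contrast of classes, which any gene of late cells follows.

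Within Krtdap-dominant cells of EoE mice, Psapl1 and Elovl4 were also higher and Fabp5 was lower. These were the 3 called of 8, against 35.9% of the genes tested. Fabp5 stood at 1793, 1536, 1525 and 1536 CPM in EoE mice 9 to 12 against 3313 to 6518 CPM in controls, without overlap, and fell by 1.73 ± 0.29 on the log2 scale (adjusted p = 8.18e-06). The median over all genes in this class was -0.47. Elovl4 averaged 2585 ± 770 CPM (SD, n = 4) against 653 ± 270 CPM in controls (n = 6), a log2 fold change of 1.73 ± 0.28 (adjusted p = 6.20e-06). Psapl1 averaged 5635 ± 1159 against 1265 ± 219 CPM, a log2 fold change of 1.84 ± 0.26 (3.74e-07). Cers3 (0.73, adjusted p = 0.0765) and Crabp2 (0.52, 0.226) did not pass. Counting shared barcodes once called 4, with Cers3 at 0.86 (0.0342).

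The class differed in makeup here too. Krt5 stood at -2.41 ± 0.47 (adjusted p = 0.00011) and Krtdap at -0.84 ± 0.28 (0.0171) against controls. Cluster 5, where Elovl4 and Psapl1 were highest in controls, held 14, 16, 5 and 4 of the cells of EoE mice 9 to 12, and cluster 4 held 15, 17, 5 and 20. In control mice 1, 4, 5 and 6 cluster 5 held 55, 31, 23 and 28 cells and cluster 4 held 110, 129, 73 and 70. In the cells nearest to cluster 4 alone, Psapl1 stood at 4237 ± 903 CPM (SD, n = 3 EoE mice) against 840 CPM in controls. Elovl4 stood at 2260 ± 25.2 against 275 CPM and Fabp5 at 1617 ± 124 against 4170 CPM. Nearest to cluster 5, measured in 2 EoE mice, Psapl1 stood at 6364 against 2398 CPM and Elovl4 at 3321 against 1832 CPM. Fabp5 stood there at 1692 against 5032 CPM. Crabp2 was higher in cluster 4 (635 against 152 CPM) but not in cluster 5 (1660 against 2046 CPM). These levels are given without a test.

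In Krt5-dominant cells of EoE mice, 1 of the 4 genes tested passed, against 19.5% of all genes. Psapl1 was higher by 3.69 ± 0.58 on the log2 scale (adjusted p = 1.38e-05), from 17 UMIs in 3 EoE mice against 35 UMIs in 6 controls. Fabp5, from 11 UMIs, stood at -0.10 (adjusted p = 0.903). Crabp2, Elovl4, Ugcg and Abca12 did not pass edgeR's filter on low counts in this class. Elovl4 had 6 UMIs in EoE and 12 in control cells of the class. In EoE mice 9, 10 and 12 it had 2, 4 and 0 UMIs. It passed the filter only without EoE mouse 12 or any 1 of the ESCC mice (log2 fold change 3.52 to 4.05). These fits are no test of Elovl4, because it passed the filter through EoE mice 9 and 10, where it was high. Krt5 was itself lower in these cells, at 1340 ± 391 CPM against 8176 ± 958 CPM in controls (SD, n = 3 and 6; log2 fold change -3.46 ± 0.33, adjusted p = 4.06e-10), so they differed in makeup from the control cells of the class. Its part in the Psapl1 value was not tested. The EoE cells of this class had a median of 367 UMIs each, against 942 in controls.

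Fabp5 was higher in both classes of ESCC cells. In Krt5-dominant cells the 3 ESCC mice 8M, 17F and 17M had 1524, 3073 and 4126 CPM against 265 to 387 CPM in controls, a fold of 10.3 (log2 3.36 ± 0.22, adjusted p = 2.67e-15). In Krtdap-dominant cells they had 12885, 13650 and 12775 CPM, against 3313 to 6518 CPM, with a log2 fold change of 1.78 ± 0.26 (adjusted p = 6.21e-07). Neither comparison had an overlap. Krtdap was itself higher in Krt5-dominant ESCC cells (log2 1.64 ± 0.32, adjusted p = 0.000129), and Krt5 was higher in Krtdap-dominant ones (2.57 ± 0.32, adjusted p = 1.75e-08), so the classes differed in makeup between conditions. The ratio of Fabp5 to Krtdap UMIs in Krt5-dominant cells was 2.77 ± 0.294 in ESCC and 1.26 ± 0.589 in controls (SD, n = 3 and 6). In Krtdap-dominant cells it was 1.58 ± 0.438 and 0.341 ± 0.118.

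The fall of Psapl1 in ESCC was also found within Krtdap-dominant cells, at 391 ± 173 CPM (SD, n = 3) against 1265 ± 219 CPM (n = 6), a log2 fold change of -1.49 ± 0.30 (adjusted p = 0.000145). With Fabp5 and Crabp2 (-0.83 ± 0.31, adjusted p = 0.0425), 3 of 8 passed there, against 28.3% of the genes tested. Crabp2 lost the call without any 1 of control mice 1, 4, 5 and 6, EoE mice 9 and 10 and the ESCC mice (adjusted p up to 0.156), and with shared barcodes counted once (0.0550). Elovl4 at -0.58 (adjusted p = 0.158), Ugcg at -0.86 (0.0672) and Cers3 at -0.42 (0.226) did not pass. In Krt5-dominant cells 2 of 4 passed, against 31.6% of all genes. Beside Fabp5 this was Cers3 (-0.67 ± 0.26, adjusted p = 0.0480), which was not called with shared barcodes counted once (-0.59, 0.0696) or without any 1 of control mice 1, 2, 4 and 6, EoE mouse 9 and ESCC mice 17F and 17M (adjusted p up to 0.182).

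**Figure D4:**
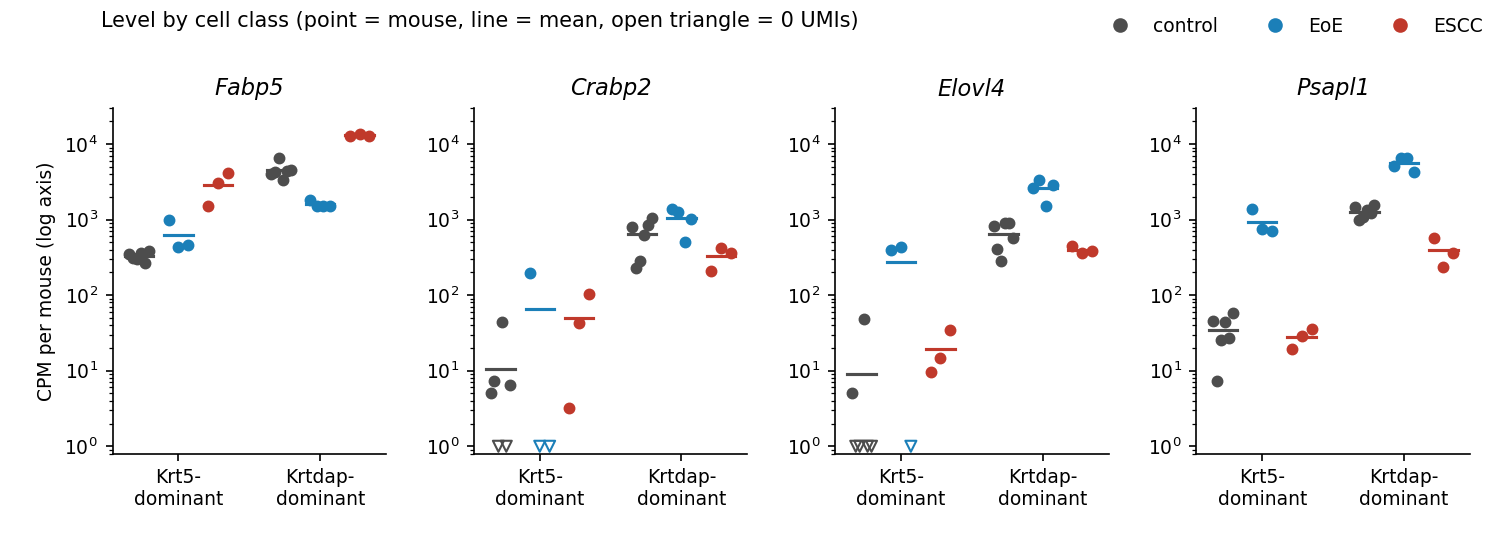
Level of Fabp5, Crabp2, Elovl4 and Psapl1 in CPM (log axis) in Krt5-dominant and Krtdap-dominant cells, 1 point per mouse and class by condition, with the mean as a line and open triangles for mice with 0 UMIs. Fabp5 in Krt5-dominant cells is at 265 to 387 CPM in controls and 1524 to 4126 CPM in ESCC, and Psapl1 in Krtdap-dominant cells is highest in EoE and lowest in ESCC.

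The ESCC effect differed between the classes in 5 of 8 genes, against 3.02% of all genes, and each was less positive or more negative in Krtdap-dominant cells. For Fabp5 the difference of the log2 fold changes was -1.44 ± 0.19 (adjusted p = 9.71e-11) and for Crabp2 -2.86 ± 0.39 (1.40e-10). In Krt5-dominant control cells Crabp2 had 13 UMIs, Elovl4 12 and Abca12 3, so these differences rest on very low control levels. For Abca12 the level of ESCC over control Krt5-dominant cells was 5.94 (95% counting interval 1.96 to 29.4). Cells were also sorted by their own UMIs of the basal marker genes (with Krt5) and the superficial ones (with Krtdap). Then 0 of 8 passed in edgeR, 1 at an unadjusted p under 0.05, where 21 of all 5760 genes were called. DESeq2 on the original classes called 1, Fabp5. Elovl4 also lost the call without control mice 1, 5 or 6 or ESCC mouse 17M (adjusted p up to 0.635), Abca12 without control mice 1 or 6 or ESCC mouse 17M (up to 0.305), and Psapl1 without ESCC mice 17F or 17M (up to 0.0582). The EoE effect differed in 0 of 8 (0.0895% of all genes called), with 3 at an unadjusted p under 0.05, and DESeq2 called 1, Psapl1.

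The rest of the pathway gives the setting. Of 69 further genes of elongation, fatty acid uptake, ceramide and retinoid handling in the tables, 45 could be tested. In ESCC 23 were lower and 3 higher, with a median log2 fold change of -0.65 against 0.01 over all genes. Of all 5863 genes tested, 1053 were higher and 963 lower (34.4% called), and the counts of the smaller lists are to be read against that share. Of the ceramide modification genes, 5 of 6 fell, as did 5 of 9 of glucosylceramide and sphingomyelin turnover, 4 of 9 of ceramide synthesis and 3 of 7 of elongation. They included Alox12b (-2.88 ± 0.43), the lipoxygenase that oxidizes the linoleate of acylceramide, the ceramidases Acer1 (-1.85 ± 0.41) and Asah2 (-2.49 ± 0.36), the acid sphingomyelinase Smpd1 (-1.60 ± 0.36), the acyl-CoA synthetase Acsl1 (-2.22 ± 0.24), the elongase Elovl6 (-1.29 ± 0.22) and the serine palmitoyltransferase subunits Sptlc3 (-4.43 ± 0.48, from 11 UMIs in ESCC) and Sptssb (-1.64 ± 0.31). Of 8 retinoid genes 3 rose and 3 fell. Cyp26b1, which degrades retinoic acid, rose (2.44 ± 0.28), and the retinol carrier Rbp2 fell (-2.54 ± 0.41).

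In EoE the same 45 genes split, with 8 higher and 11 lower and a median of 0.27 against -0.74 over all genes, where 557 of 5863 were higher and 1462 lower (34.4% called). With all deposited cells the median was -0.33 against -0.31 over all genes, with 9 higher and 14 lower of 44 tested. The elongase Elovl7 (2.00 ± 0.24), the dihydroceramide desaturase Degs1 (1.90 ± 0.25) and the ceramidase Asah2 (2.19 ± 0.45) rose. The acyl-CoA-binding protein Dbi (-2.01 ± 0.32) and prosaposin, Psap (-1.94 ± 0.32), to which Psapl1 is related, fell. Of the 11 that fell, 5 had 3 UMIs or fewer in EoE. Cers2 and Cers5, also ceramide synthases, had 0 UMIs in EoE. They were at least 2.36-fold and 2.68-fold lower than in controls, against a floor of 3 UMIs over the group. Hacd2, a dehydratase of the elongation cycle, had 2 UMIs and a level 0.0893 times that of controls (95% counting interval 0.0108 to 0.325). For the acyl-CoA synthetase Acsl5, with 3 UMIs, this ratio was 0.240 (0.0490 to 0.709), and for Rarg, a retinoic acid receptor, with 1 UMI, 0.171 (0.00429 to 0.975). Against EoE, ESCC had 10 of the 45 higher and 16 lower, where 1760 of all 5863 genes were higher and 685 lower (41.7% called).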

How the data were processed

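Each deposited file holds UMI counts per gene and cell of 1 library, whole numbers without normalization. The authors extracted barcodes with UMI-tools 1.0.0, aligned reads with STAR 2.7.3 to GRCm38 (GENCODE M23), assigned them with featureCounts, filtered in Seurat and drew 1500 cells per condition. The strand setting is not given in the sources used here.

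Cells within the study's limits were kept, and those with at least 3 non-epithelial marker UMIs, and more of these than epithelial ones, were left out (37 of all cells). No doublet caller was run here beside those upper limits. Counts of both libraries were summed per mouse and tested over all genes by the quasi-likelihood test of edgeR 4.0.16 under R 4.3.3, with all 3 groups in 1 fit. Low genes were removed with filterByExpr, libraries were scaled by TMM, and p-values were adjusted by Benjamini-Hochberg, with a threshold of 0.05. DESeq2 1.42.0 was an alternative. Mice are the replicates.

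Control cells were clustered in scanpy 1.11.5 (10000 UMIs per cell, 2000 variable genes, 50 components, 15 neighbors, Leiden resolution 1) without the 8 genes, and clusters were classed by whether Krt5 or Krtdap was higher. Other cells took the majority class of their 15 nearest control cells of other mice. Class fits needed 10 cells per mouse and class. CPM levels use all UMIs of the cells concerned.

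The 8 genes, the pathway lists and the marker lists were chosen with earlier results of these data known. Named from the pathway lists are, per disease, the 10 called genes with the largest fold change at an average log2 CPM of at least 5, and beside each of the 8 genes the 3 most correlated ones. The scripts were tested on simulated data. Gene overlaps and copies were checked in GENCODE M21, in which 0 genes share at least 10% of the 31-base sequences in the last 300 bases of any of the 8. The alternatives are given at the end. Intervals and floors cover counting error only.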

Additional observations from a re-analysis of the deposited data

Results flagged for a closer look

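The effect of ESCC differed between the cell classes in 5 genes, by the test of the difference itself (edgeR, class by condition). Of all genes tested, 3.02% were called. DESeq2 kept only the call of Fabp5. Classes from marker UMIs left too few ESCC mice with enough Krtdap-dominant cells to test the difference. Elovl4, Abca12 and Psapl1 each lost the call when certain single mice were left out. The log2 fold change in Krtdap-dominant minus that in Krt5-dominant cells was -2.86 for Crabp2, -2.76 for Abca12, -1.62 for Elovl4, -1.52 for Psapl1 and -1.44 for Fabp5. Abca12 had 3 UMIs in the Krt5-dominant control cells, and Krtdap itself was higher in the Krt5-dominant ESCC cells. The part of both in these differences was not tested.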

How the results depend on the processing

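No paired analysis was possible because the mice of different groups share no numbers. Of the values for single genes under other settings, 1259 kept their side of the threshold, 89 lost and 10 gained the call. Another 2 changed sign with a call in at least 1 of the fits. The 1259 include changes of sign where no value was called, such as Elovl1, Ugcg and Abca12 in EoE with all deposited cells. In ESCC against control, DESeq2 called 5 of 8 genes (1930 of all 5863). Thinning to the EoE depth called 3 of the 5 that could be tested (188 of all 629). In ESCC against EoE, all deposited cells gave 5, where 3375 of all 5971 genes were called. A fit of these groups alone called 5 of the 5 testable, where 677 of all 880 genes were called. Thinning also called 5 of 5, where 450 of all 629 were called. With 1 mouse left out, 5 to 8 were called. Leaving out 1 mouse gave 3 to 5 in EoE against control and 6 to 8 in ESCC against control. In Krt5-dominant cells it gave 1 to 2 for EoE and 1 to 3 for ESCC, where DESeq2, classes from marker UMIs and shared barcodes counted once gave 1 each. The upper counts include Elovl4 for EoE and Crabp2 for ESCC, which each passed the low count filter in only 4 of these fits. For the class difference of the ESCC effect, leaving out 1 mouse gave 2 to 5, DESeq2 1 and classes from marker UMIs 0. With the marker classes Crabp2 (0.17) and Psapl1 (0.16) reversed. For the class difference of the EoE effect DESeq2 gave 1. The causes were not tested. Counting shared barcodes once and using first libraries only were chosen after seeing the data. EoE depth limits Ugcg, Abca12 and Elovl1, with 11, 12 and 26 UMIs.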
